A study of Mus musculus with 6 samples.

Results

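The heme synthesis enzymes were followed as 8 genes, taken by symbol from the deposited tables of 17060 genes: Alas1, Alas2, Alad, Uros, Urod, Cpox, Ppox and Fech. The enzyme that acts between Alad and Uros is not among them and was not analysed here. All 8 genes had reads in all 6 cultures and all 8 passed the filter on low counts. The series compared bone marrow (BM) lineage-negative cells of WT mice, which are mostly progenitors, cultured in medium that contains erythropoietin (EPO). Under EPO these cells mature into erythroblasts, the nucleated precursors of red cells. In 3 cultures NUP-17d, a small-molecule inhibitor of pleckstrin-2 (Plek2), was present for 48 hours, and 3 control cultures received its vehicle DMSO for the same time. All 6 cultures carried the same WT genotype and the same EPO medium, and the strain and age of the mice are not given in the labels. Nothing in the labels says whether the 3 cultures of a condition came from separate mice, so the p-values measure the spread between these cultures, which may be technical.

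Heme is built from glycine and succinyl-CoA by a chain of enzymes that begins and ends in the mitochondrion and passes through the cytosol in between. The first step, 5-aminolevulinate synthase, is encoded by 2 genes: Alas1, which is used in most tissues and is repressed by heme, and Alas2, which is switched on in the erythroid lineage and whose mRNA carries an iron-responsive element. Alad joins 2 molecules of aminolevulinate, Uros closes the tetrapyrrole ring, Urod trims its side chains, Cpox turns side chains of the ring into vinyl groups at the mitochondrion, Ppox oxidizes the ring, and Fech inserts iron to give heme. Maturing erythroblasts make heme in large amounts for hemoglobin, and several of these genes are known targets of the erythroid factor GATA1.

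In the cultures with NUP-17d, 7 of the 8 transcripts were lower than with DMSO and 1, Alas1, was higher. Alas2, the erythroid first step, fell by 40.9% of its level and Fech, the last step, fell by 40.0%. Uros fell by 8.86%, the smallest drop of the 7, and Alas1 rose by 13.5%. The ratio of Alas2 to Alas1 transcripts went from 77.7 ± 1.57 to 40.5 ± 2.06 (SD, n = 3 cultures each). All 8 differences passed an adjusted p of 0.05 in edgeR's quasi-likelihood test, against 35.3% of the 12306 tested genes. The test called 18.9% of all tested genes lower and 16.4% higher.

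The libraries were of nearly equal depth, with expected counts summing to between 20076409 and 20419018 reads per culture. Hemoglobin genes took 18.3% to 20.3% of the reads with DMSO and 11.8% to 13.1% with NUP-17d, so the composition of the libraries differed between the groups. Read counts per library scaled to a common total (CPM) are therefore given after the TMM correction for composition, whose factors were 0.887 to 0.930 with DMSO and 1.08 to 1.11 with NUP-17d. FPKM values, in which reads are scaled to the length of the transcript and to the size of the library without such a correction, are used to compare one gene with another. All 11 erythroid markers were read and tested in these cultures. These are bulk samples, in which fewer erythroid cells and less RNA per cell cannot be told apart.

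The DNA just upstream of 2 of the genes that fell is shown because the sequence letters that GATA factors recognize lie in it. The letters searched were GATA with an A or a T before it and an A or a G after it (such as AGATAA), on both strands, in the 250 bases before each start in a table of RefSeq promoters (build GRCm38.p6, which is mm10). The pair was chosen after the matches were seen. Capitals mark the matches, all of which lie on the strand opposite to the one shown. Alas2 lies on the plus strand at chrX:150547167-150547416 and Cpox on the plus strand at chr16:58669958-58670207.
Alas2: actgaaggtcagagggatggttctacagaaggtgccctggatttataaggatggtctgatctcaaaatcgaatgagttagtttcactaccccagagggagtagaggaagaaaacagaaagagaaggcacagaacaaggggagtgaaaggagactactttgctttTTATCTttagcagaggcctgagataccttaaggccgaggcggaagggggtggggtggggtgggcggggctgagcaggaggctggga
Cpox: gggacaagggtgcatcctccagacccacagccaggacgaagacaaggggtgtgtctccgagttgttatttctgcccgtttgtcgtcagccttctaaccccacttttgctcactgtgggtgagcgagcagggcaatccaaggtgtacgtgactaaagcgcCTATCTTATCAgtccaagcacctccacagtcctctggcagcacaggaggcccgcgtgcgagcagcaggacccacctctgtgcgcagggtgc

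Alas2 had 1 GATA match, 86 bases before its start. Cpox had 2 matches, 91 and 86 bases before its start, which overlap by a single base. Of all 32851 promoter windows of this length, 26.5% held a match. RefSeq promoters were at hand for 7 of the 8 genes, all but Fech. No GATA match lay in the windows of Ppox, Alad, Urod or Alas1, nor in 1 of the 2 windows of Uros, and the other held 2. Both Uros windows lie inside the annotated gene, and the bases before its outer end were not searched. The run CACCC, which KLF1 sites contain, occurred 3 times before Alas2 and 4 times before Cpox, and in 52.0% of all windows. It also lay in both windows of Alas1, the gene that rose, and in 1 window of Alad. The windows of Ppox, Urod and Uros held none. The GC box GGGCGG (32.7% of windows) and the E box CANNTG (66.2%) were also searched, with 1 and 0 matches before Alas2 and none of either before Cpox. Both occurred in windows of Alad, Urod, Uros and Alas1, and neither in that of Ppox. A match is a run of letters and not a measured binding site.

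The 8 transcripts spanned a wide range of levels. With DMSO, Alas2 stood at 2031 ± 23.8 FPKM (SD, n = 3 cultures) and was 16th from the top of all genes listed. Fech followed at 571 ± 7.30 FPKM, then Cpox at 281 ± 2.72 and Urod at 277 ± 6.68, whose ranges overlapped. Below them came Ppox at 136 ± 1.76 FPKM, Uros at 94.3 ± 2.18, Alad at 34.9 ± 0.681 and Alas1 at 26.2 ± 0.284. Apart from Cpox and Urod, no neighbors in this order overlapped. Alas2 alone made up 58.8% ± 0.224 of the summed FPKM of the 8 genes, and Alas1 0.758% ± 0.0142.

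With NUP-17d the top of the order was the same and 2 pairs below it changed places in their mean levels. Alas2 stood at 1449 ± 38.6 FPKM and Fech at 413 ± 7.57 (SD, n = 3 cultures). Cpox, at 252 ± 3.06 FPKM, and Urod, at 228 ± 4.37, had ranges that no longer overlapped. Within each culture of both groups Cpox lay above Urod. Uros, at 104 ± 1.24 FPKM, and Ppox, at 102 ± 4.24, had overlapping ranges, whereas Ppox lay above Uros in every DMSO culture. Alas1, at 35.9 ± 1.46 FPKM, lay above Alad, at 31.5 ± 0.554, in every NUP-17d culture and below it in every DMSO culture. Of the summed FPKM, Alas2 made up 55.4% ± 0.463, Alas1 1.37% ± 0.0599 and Uros 3.96% ± 0.0945, against 2.73% ± 0.0718 for Uros with DMSO. The 8 genes together took 0.764% to 0.777% of all reads with DMSO and 0.574% to 0.596% with NUP-17d.

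**Figure D1:**
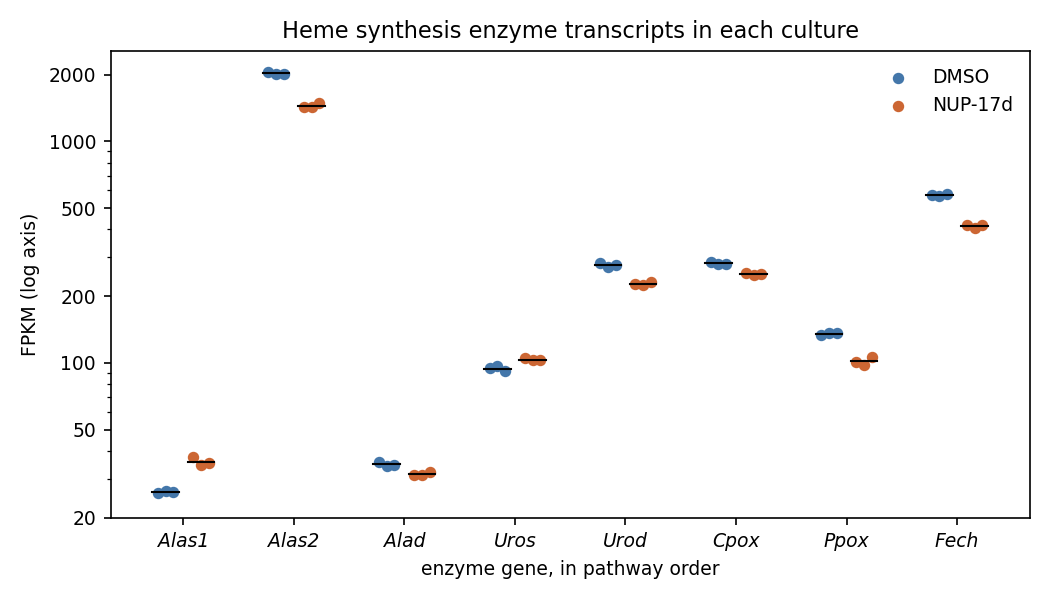
FPKM of each heme synthesis enzyme (log axis) in the 3 DMSO cultures (blue) and the 3 NUP-17d cultures (orange), genes in pathway order, with a bar at each group mean. The NUP-17d points lie below the DMSO points in 6 genes and above them in Alas1 and Uros, on a scale that is not corrected for library composition.

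Alas2 sets the first step in red cell precursors. It had 4628, 4321 and 4375 CPM in the 3 DMSO cultures and 2582, 2550.4 and 2743 CPM in the 3 NUP-17d cultures. Every NUP-17d culture lay far below every DMSO culture. The log2 fold change was -0.76 (standard error, SE, 0.0400, adjusted p = 3.07e-14), and only 1.57% of the tested genes had a lower one. The gene lies on chromosome X at 150547417 to 150570622 and overlaps Apex2, which was measured at 13.0 ± 0.450 CPM with DMSO, so reads shared with it would be few beside those of Alas2.

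Alas1, the form used in most tissues, went the other way. It had 80.1, 77.9 and 77.6 CPM with DMSO and 92.8, 85.5 and 89.2 CPM with NUP-17d. The groups did not overlap, and the gap between them was small beside that of Alas2. The log2 fold change was 0.18 (SE 0.0403, adjusted p = 0.000733), with a 95% interval from 0.10 to 0.27. The gene lies on chromosome 9 at 106233455 to 106247954, with no other RefSeq gene over it.

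In the cytosol, Alad had 185, 169 and 174 CPM with DMSO and 130.2, 129 and 136 CPM with NUP-17d, for a log2 difference of -0.42 (SE 0.0385, adjusted p = 1.72e-09). Urod had 477, 433 and 449 CPM with DMSO and 307, 300.5 and 319.6 CPM with NUP-17d, for a log2 difference of -0.55 (SE 0.0381, adjusted p = 5.47e-12). Both genes were lower in every NUP-17d culture than in any DMSO culture. Both lie on chromosome 4, Alad at 62505984 to 62520063 and Urod at 116989965 to 116994436. The Urod counts were not whole in any of the 6 cultures, and an expected count that is not whole holds reads divided between genes.

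Uros, the enzyme that closes the ring, stood apart from its neighbors. It had 164, 159 and 154 CPM with DMSO and 146, 142 and 146 CPM with NUP-17d. The groups did not overlap, but the highest NUP-17d and the lowest DMSO values were close. The log2 fold change was -0.13 (SE 0.0358, adjusted p = 0.00448), with a 95% interval from -0.21 to -0.06 that does not reach those of the other 6 genes that fell. Its direction rested on the scaling: with library totals only, the log2 fold change of Uros was 0.134 (adjusted p = 0.00262), and on that scale the median of all tested genes was 0.28, against 0.014 with TMM. On both scales Uros lay below the median gene. It lies on chromosome 7 at 133686142 to 133710467 and overlaps Bccip, which had 33.6 ± 1.51 CPM with DMSO and 31.5 ± 1.46 with NUP-17d and did not pass the threshold (log2 fold change -0.09, adjusted p = 0.193). Whether reads were counted by strand is not given in the sources used here. The Uros counts were whole in every culture, so they show no reads divided between genes. Whether reads from Bccip were counted wholly to Uros where they overlap was not tested.

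The late mitochondrial steps were lower in every NUP-17d culture. Cpox had 1038, 975 and 983 CPM with DMSO and 746, 725 and 748 CPM with NUP-17d, for a log2 difference of -0.43 (SE 0.0354, adjusted p = 1.64e-10). Ppox, the next enzyme, had 276, 268 and 273 CPM with DMSO and 167, 162 and 179.9 CPM with NUP-17d, for a log2 difference of -0.68 (SE 0.0381, adjusted p = 8.31e-14). Cpox thus fell less than Ppox, with 95% intervals of -0.51 to -0.36 and -0.76 to -0.60 that do not meet. Cpox lies on chromosome 16 at 58670208 to 58680391 and Ppox on chromosome 1 at 171276991 to 171281193, and the Cpox counts were not whole in any culture.

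Fech, ferrochelatase, completes the molecule. It had 1921, 1812 and 1883 CPM with DMSO and 1128, 1089 and 1153 CPM with NUP-17d. The groups lay far apart, and the log2 fold change was -0.74 (SE 0.0367, adjusted p = 1e-14), with an interval of -0.81 to -0.66 that overlaps those of Alas2 and Ppox. The gene lies on chromosome 18 at 64456542 to 64489098. The groups did not overlap in any of the 8 genes, as was the case in 46.0% of all tested genes.

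**Figure D2:**
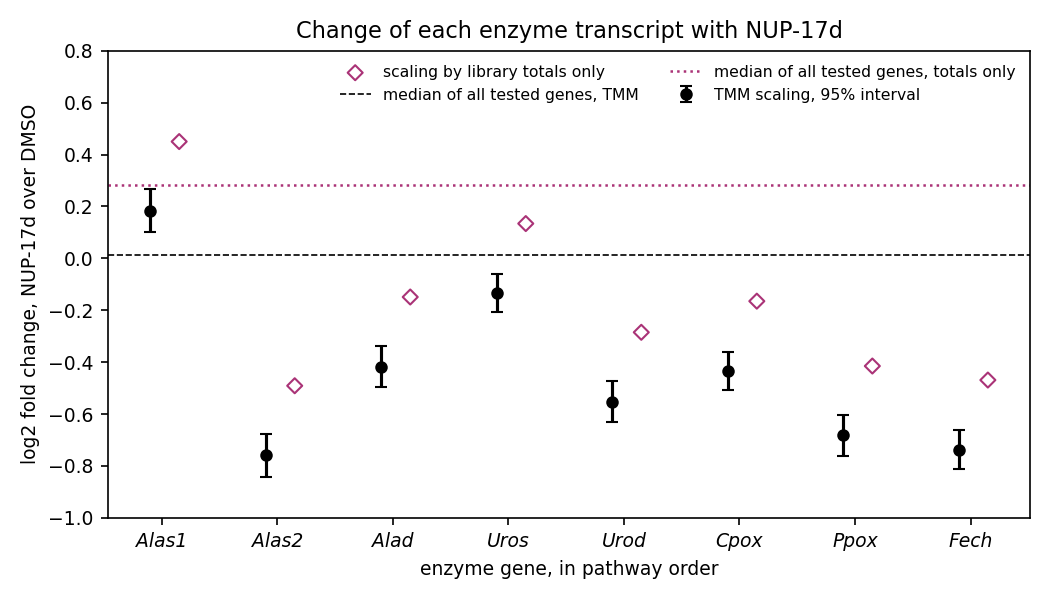
Log2 fold change of each enzyme transcript, NUP-17d over DMSO, with TMM scaling (black, 95% intervals from edgeR, n = 3 cultures each) and with library totals only (open diamonds). Lines mark the median of all tested genes under each scaling (0.014 and 0.28). Uros is the gene whose sign differs between the scalings, and Alas1 lies above the median line under both.

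A ratio of 2 genes within a culture does not depend on how the libraries are scaled. The ratio of Alas2 to Alas1 FPKM was 79.3, 76.2 and 77.4 with DMSO and 38.2, 40.9 and 42.2 with NUP-17d. The summed FPKM of the cytosolic enzymes Alad, Uros and Urod over that of the mitochondrial enzymes Alas2, Cpox, Ppox and Fech was 0.136, 0.134 and 0.134 with DMSO and 0.165, 0.165 and 0.162 with NUP-17d, without the cytosolic enzyme that was not analysed. This ratio was higher in every NUP-17d culture. Alas1, also mitochondrial, was left out of it, and Alas2 is its largest term. The genes did not divide by compartment, since the mitochondrial Cpox had a log2 difference of -0.43 and the cytosolic Urod one of -0.55. The reads of the 8 enzymes over those of the hemoglobin genes came to 0.0383, 0.0418 and 0.0408 with DMSO and to 0.0496, 0.0483 and 0.0456 with NUP-17d. This last ratio was higher in every NUP-17d culture, by 1.19 times on average. In each of these 3 ratios the groups did not overlap, and a 2-sided exact permutation test gave p = 0.1 (adjusted p = 0.1 over the 3), the smallest p that 3 cultures against 3 allow.

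Set against Alas2 in the same culture, the transcripts of the other enzymes kept different distances. Fech held at 28.1% ± 0.531 of the Alas2 FPKM with DMSO and 28.5% ± 0.550 with NUP-17d (SD over 3 cultures), with overlap between the groups (2-sided exact permutation test, p = 0.4). Ppox had 6.67% ± 0.163 and 7.03% ± 0.112, a small gap without overlap. Urod went from 13.6% ± 0.202 to 15.7% ± 0.151 and Cpox from 13.9% ± 0.0445 to 17.4% ± 0.513. Alad went from 1.72% ± 0.0172 to 2.18% ± 0.0196. Uros went from 4.64% ± 0.116 to 7.15% ± 0.226, and Alas1 from 1.29% ± 0.0260 to 2.48% ± 0.128. Each of the 6 genes other than Fech had p = 0.1 in the same exact permutation test, the smallest it can give. These ratios to Alas2 were chosen after the data were seen.

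**Figure D3:**
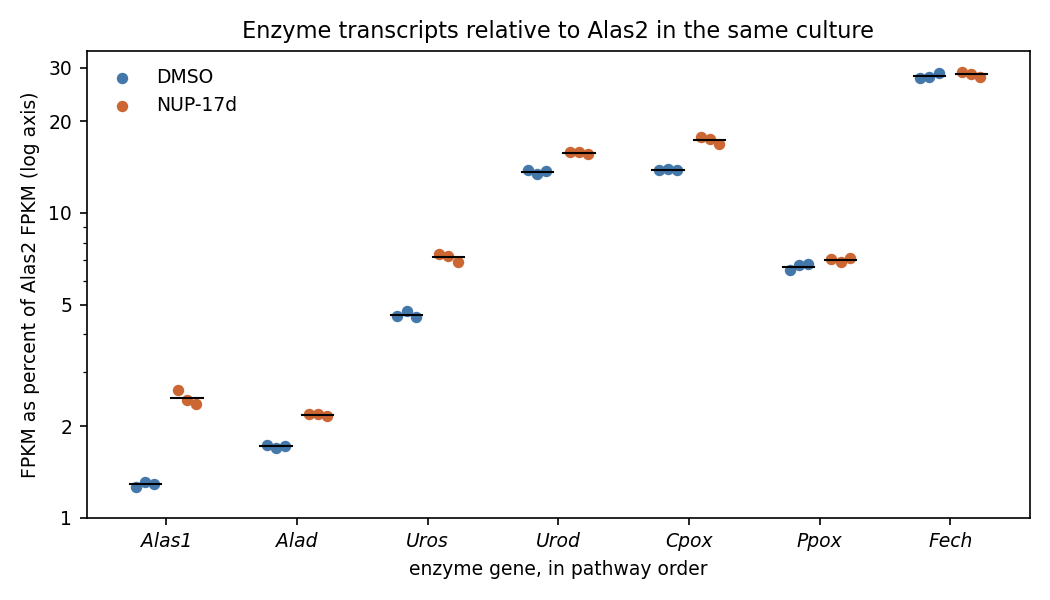
FPKM of each enzyme as a percent of the Alas2 FPKM of the same culture (log axis), 3 DMSO cultures (blue) and 3 NUP-17d cultures (orange), with a bar at each group mean. Fech stays near 28% in both groups, whereas Uros and Alas1 stand clearly higher with NUP-17d.

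The genes that feed the pathway were also lower where they changed. Of 15 genes for glycine and succinyl-CoA supply, iron import, iron-sulfur assembly and cofactor loading, 9 were lower, 0 were higher and 6 did not pass the threshold, with a median log2 fold change of -0.13, where 18.9% of all tested genes were lower and 16.4% higher. Slc25a37, mitoferrin-1, which brings iron into the mitochondrion, had 2153 ± 61.8 CPM with DMSO and 1175 ± 23.7 with NUP-17d (SD over 3 cultures), a log2 difference of -0.87. Slc6a9, a glycine transporter, fell by 0.54 and Abcb10, a transporter of the inner mitochondrial membrane, by 0.48 on the log2 scale. The genes for succinyl-CoA supply changed little. Ogdh, Sucla2, Suclg1 and Suclg2 did not pass the threshold, with log2 differences of -0.07, -0.04, -0.06 and 0.10. Dlst passed it with a log2 difference of -0.1. These succinyl-CoA genes were named after their values were seen. Of 12 genes for porphyrin and heme transport and for partners of the enzymes, 8 were lower, 0 were higher and 4 did not pass, with a median of -0.22. Fam210b, a mitochondrial protein linked to erythroid heme production, fell by 0.82, Tspo2 by 0.54 and Slc48a1, a heme transporter, by 0.43. With library totals only, the supply list had 5 lower and 8 higher and the transport list 4 lower and 5 higher, on a scale where 5.34% of all tested genes were called lower and 68.7% higher.

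Genes that break down, export or sense heme were mixed, with 4 of 9 higher, 3 lower and 2 not past the threshold, and a median log2 difference of 0.11, beside 16.4% higher and 18.9% lower among all tested genes. Hmox1, heme oxygenase, which opens the heme ring, had 154, 153 and 158 CPM with DMSO and 322, 334 and 329 CPM with NUP-17d, with no overlap. Eif2ak1, the heme-regulated kinase of translation initiation, fell by 0.61 on the log2 scale, and Bach1, a heme-binding repressor of Hmox1, by 0.45. The count of higher genes in this list was 2 with DESeq2, which called 10.4% of all genes higher, 2 without DMSO culture 1 and 2 without NUP-17d culture 2.

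Among 14 regulators of the enzyme genes, 7 were lower, 1 was higher and 5 did not pass, and Ppargc1a had too few reads to be tested. Of all tested genes, 18.9% were lower and 16.4% higher. Nfe2, an erythroid transcription factor, fell by 0.61, Tal1 by 0.41 and Lmo2 by 0.40 on the log2 scale. Gata1 had 248 ± 4.17 CPM with DMSO and 197 ± 5.59 with NUP-17d (SD over 3 cultures), a log2 difference of -0.33. Aco1, which encodes one of the 2 proteins that bind the iron-responsive element of Alas2 mRNA, was the gene that rose (log2 fold change 0.23, adjusted p = 0.000527), whereas Ireb2, which encodes the other, had a value of -0.04 (adjusted p = 0.485). Gata1, Aco1 and Ireb2 were named after their values were seen. Without NUP-17d culture 2, and likewise without culture 3, 2 regulators were higher. With library totals only, 4 regulators were lower and 7 higher, where 5.34% of all tested genes were lower and 68.7% higher.

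As a yardstick from the same cells, all 16 of a list of red cell structural genes were lower, with a median log2 difference of -0.63. All 8 tested of 12 hemoglobin genes were lower too, with a median of -0.90. The other hemoglobin genes had too few reads to be tested. Among the 8 tested, Hbb-b1 and Hbb-b2 were low, at 11.0 and 1.5 CPM with DMSO. Without DMSO culture 1, 7 hemoglobin genes were called lower. Of all tested genes, 18.9% were lower. The median of the 8 heme enzymes was -0.49 and that of all tested genes 0.014. Among structural genes, Tmod1, which caps the short actin filaments of the red cell membrane, fell by 0.75 on the log2 scale and Kel, the Kell blood group protein, fell by 0.74. Among hemoglobin genes, Hba-a2 fell by 1.08, Hbb-bt by 0.92 and Hbb-bs by 0.88, with the limit that reads of near-identical copies may have been divided between them. The same limit holds for the count and median of the hemoglobin genes. The log2 differences of Uros and Alas1 lay above that of every structural gene, of which the highest was -0.35.

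**Figure D4:**
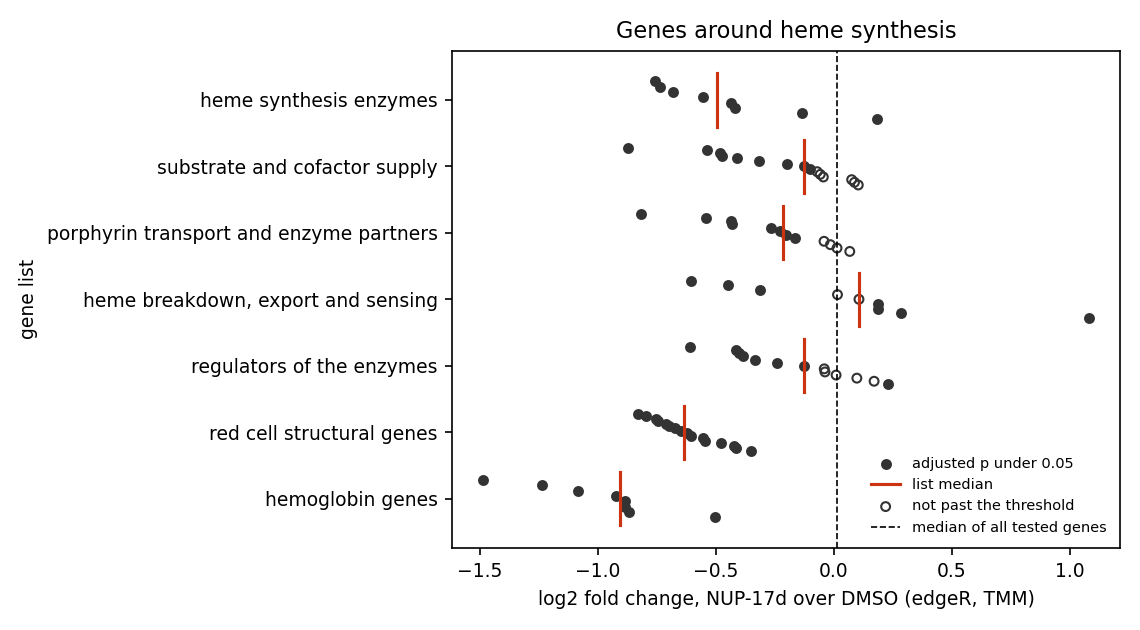
Log2 fold change with NUP-17d (edgeR, TMM) of each tested gene in 7 lists, filled where the adjusted p was under 0.05, with each list's median in red and the median of all tested genes dashed. The structural and hemoglobin genes all lie below zero, and the list for heme breakdown, export and sensing spreads to both sides.

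All 11 erythroid markers were lower, and their summed CPM was 162556 to 187929 with DMSO and 92207 to 103190.2 with NUP-17d. Markers of other cell types were also read, none of them at 0 throughout. Their counts stand beside 16.4% higher and 18.9% lower among all tested genes, and those of the neutrophil and macrophage markers were near these shares. The summed CPM of 10 neutrophil markers was 3979 to 4146 with DMSO and 4054 to 4333 with NUP-17d, and 2 were higher and 2 lower. For 8 megakaryocyte markers it was 458 to 507 and 525 to 545, with 5 higher and 1 lower. For 8 macrophage markers it was 626 to 684 and 677 to 746, with 2 higher and 2 lower. For 8 mast cell and basophil markers it was 234 to 252 and 207 to 214, with 1 higher and 3 lower of the 6 tested. For 8 stem and progenitor markers it was 230.1 to 235 and 239.7 to 254, with 3 higher and 0 lower of the 7 tested. For 8 lymphoid markers it was 17.3 to 18.9 and 15.7 to 16.2, with 0 higher and 2 lower of the 6 tested. The part of these cells in the changes of the heme enzymes was not tested.

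The genes whose pattern over the 6 cultures was closest to a member were found by the root mean square difference of centered log2 CPM, among 8456 genes with a mean of at least 10 CPM. For Alas2 they were Tmod1 (0.0100), Tmcc2 (0.0202), Frmd4a (0.0214) and Dhrs11 (0.0247). For Fech they were Frmd4a (0.0105), Tmod1 (0.0160), Kel (0.0193) and Fars2 (0.0207), so Tmod1 and Frmd4a were near to both. For Alas1 they were Tbc1d22a (0.0143), Ncoa6 (0.0176), Mdga1 (0.0178) and Nnt (0.0182). The closeness is a description over 6 cultures that share 2 conditions. It mostly follows the fold change between them, so genes near Alas1, which rose, could not also be near Alas2 or Fech. The call of Mdga1 (adjusted p = 0.0338) was lost with DESeq2 and without any 1 of the DMSO cultures or of NUP-17d cultures 1 and 3.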

How the data were processed

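mRNA of 6 cultures was sequenced, 3 with DMSO and 3 with NUP-17d, grouped by their labels. The labels describe poly(A) selection and a DNBseq instrument, whereas the methods name a stranded kit and an Illumina instrument. For each culture the authors deposited expected counts (estimated reads per gene, not normalized) and FPKM values (scaled to transcript length and library size), on mm10. The aligner and counter are not given in the sources used here. A gene missing from a table was taken as 0.

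Expected counts were rounded. edgeR 4.0.16 in R 4.3.3 was used with filterByExpr, TMM factors and its quasi-likelihood test. P-values of the 12306 tested genes were adjusted by Benjamini and Hochberg's method, with a threshold of 0.05. Standard errors were derived from the F statistic. CPM is scaled by TMM. The fits were tested on simulated data. Alternatives were DESeq2 1.42.0, RLE factors, library totals only, no filter, hemoglobin genes removed, limma 3.58.1 on FPKM values (log2 after adding 1 or 0.1), a replicate block, and dropping cultures in turn. The members and lists were chosen with earlier results of these data known. Genes named are the members, the 3 genes of lowest p in each other list, the 4 genes closest to Alas1, Alas2 and Fech, and those said to be chosen afterwards. A gene that this rule also picks is not reported here.

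The variation between cultures gave a common biological coefficient of variation of 2.95%. The chi-square per degree of freedom between cultures of one condition was 1.86 to 4.74, on counts scaled to library totals without TMM. On that scale no 2 libraries agreed within sampling noise. Differences in the share of hemoglobin reads enter these values, and their part was not tested.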

Additional observations from a re-analysis of the deposited data

How the results depend on the processing

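All 8 enzymes passed the threshold under every alternative run, and 7 of them kept their direction. Uros reversed where composition was not corrected, with a log2 fold change of 0.134 with library totals only, 0.135 with limma on log2(FPKM + 1) and 0.136 with limma on log2(FPKM + 0.1), so 2, 2 and 2 enzymes were then higher. These 3 settings put the median of all tested genes at 0.281, 0.216 and 0.275. They called 9115, 9059 and 9038 genes, of which 8458, 8423 and 8403 were higher and 657, 636 and 635 lower, against 2019 higher and 2327 lower of 4346 with TMM. DESeq2 called 3153 genes, 1276 of them higher. Leaving out each culture gave 3713 to 4008 genes, -0.79 to -0.73 for Alas2, 0.15 to 0.21 for Alas1 and -0.16 to -0.11 for Uros.

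With the replicate number as a block, 4543 genes and all 8 enzymes passed. Same-numbered cultures did not deviate together, with correlations of 0.0335, -0.0210 and -0.0324. Of the 3 DMSO cultures only culture 1 correlated best with its own number. These values show no pairing by number, but they cannot tell whether the cultures were set up in pairs. The values are relative to each library, and the choice of scaling sets the direction of small changes such as that of Uros. With 3 cultures per condition, exact tests of a ratio cannot go below p = 0.1.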

Other observations

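The transcript length column, an average over the annotated isoforms of a gene, was nearly constant over the 6 cultures for the enzymes with more than 1 transcript. It spanned 1977.95 to 1978.80 bases for Alas2, 2703.02 to 2705.05 for Alas1 and 2947.19 to 2950.76 for Fech. The widest span was that of Uros, with 4 transcripts, at 0.408% of its length, and Alad followed at 0.180%. Urod, Cpox and Ppox have a single transcript in these tables, so their length cannot vary.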
